A study of Mus musculus with 2 samples.

Results

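Nr4a1, Nr4a2 and Nr4a3 are the 3 Nr4a orphan nuclear receptors on the mouse array, and each was measured by 1 probe printed as 1 spot. They were taken as the non-control spots whose gene name was one of these 3 symbols on both arrays, which is 3 of 28095 gene names and 3 of 43379 spots. The genes were chosen by the large rise in signal of Nr4a1 and Nr4a2 on these arrays, so the rises are given as a description and carry no test. The cells were NIH3T3, an established mouse fibroblast line, grown in medium with 10% bovine serum. The control group was left without drug, and the other group received 10 µM thapsigargin for 3 h. Thapsigargin blocks the calcium pump of the endoplasmic reticulum, which empties its calcium store and starts the unfolded protein response. Lysates were separated on sucrose gradients, and each array compared RNA bound to polysomes (P, Cy3 dye) with RNA that was free or carried by monosomes (FM, Cy5 dye). RNA of 3 preparations was pooled per condition, so there was 1 array per condition, and no test between the conditions could be made. What follows describes 2 pooled RNA samples, and culture-to-culture variation could not be estimated.

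The NR4A proteins are nuclear receptors for which no classical ligand is known, and their activity is set largely by how much of them is made. Their genes belong to the immediate-early class: transcription starts within minutes of a stimulus from transcription factors already in the cell, among them CREB and MEF2, which respond to cAMP and calcium. Nr4a1 is also called Nur77, Nr4a2 Nurr1 and Nr4a3 Nor1. They bind DNA alone at the NBRE or as dimers, and Nr4a1 and Nr4a2 can also pair with RXR, the common partner of many nuclear receptors.

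The probes define what was measured for each gene, and those of Nr4a2 and Nr4a3 are shown because they hold an open reading frame. The array annotation placed the Nr4a1 probe on mm9 at chr15:101105071-101105130 on the plus strand, and this probe had no open frame. The Nr4a2 probe was placed at chr2:56960699-56960758 on the minus strand. The Nr4a3 probe was placed at chr4:48080690-48083876 on the plus strand, where its 60 bases were spread over 3187 bases, so it crosses at least 1 intron. The longest run of bases shared by any pair of the 3 probes on the same strand was 7.
Nr4a2 probe: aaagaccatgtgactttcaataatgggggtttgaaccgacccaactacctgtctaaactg
Nr4a3 probe: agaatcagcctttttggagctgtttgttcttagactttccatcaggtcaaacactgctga

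The 250 bases before the transcription start of each gene are shown because all of them hold the same short motif 4 times. The sequences are from RefSeq on GRCm38.p6 and read 5′ to 3′ toward the gene. They cover chr15:101266596-101266845 on the plus strand for Nr4a1, chr2:57124004-57124253 on the minus strand for Nr4a2 and chr4:48045055-48045304 on the plus strand for Nr4a3. Capitals mark the half-site of the cAMP response element, TGACG, or its reverse complement CGTCA.
Nr4a1 upstream: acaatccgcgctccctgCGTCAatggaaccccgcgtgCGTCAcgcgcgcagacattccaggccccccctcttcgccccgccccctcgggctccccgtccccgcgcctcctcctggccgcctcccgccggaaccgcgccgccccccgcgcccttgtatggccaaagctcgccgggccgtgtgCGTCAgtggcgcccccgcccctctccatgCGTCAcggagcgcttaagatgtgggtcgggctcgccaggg
Nr4a2 upstream: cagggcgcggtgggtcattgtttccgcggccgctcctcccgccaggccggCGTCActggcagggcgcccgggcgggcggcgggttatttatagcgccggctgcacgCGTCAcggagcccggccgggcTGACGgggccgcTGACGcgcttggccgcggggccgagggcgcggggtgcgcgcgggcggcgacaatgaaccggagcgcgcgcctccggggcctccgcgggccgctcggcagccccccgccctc
Nr4a3 upstream: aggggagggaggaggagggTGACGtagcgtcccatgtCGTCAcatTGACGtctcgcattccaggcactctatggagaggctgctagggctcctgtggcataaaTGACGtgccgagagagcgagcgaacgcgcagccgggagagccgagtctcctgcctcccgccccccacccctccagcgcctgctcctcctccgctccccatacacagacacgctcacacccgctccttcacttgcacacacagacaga

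Each of the 3 windows held 4 half-sites, counted on both strands. They began 233, 213, 69 and 40 bases before the start of Nr4a1, and 200, 144, 123 and 111 bases before that of Nr4a2. For Nr4a3 they began 231, 213, 205 and 147 bases before the start. Among all 32851 upstream windows of this length, 17.8% held at least 1 half-site and 0.137%, or 45 windows, held 4 or more. The full element TGACGTCA, which contains 2 overlapping half-sites, was in none of the 3 windows and in 1.55% of all. The NBRE, AAAGGTCA, was in none of the 3 and in 1.34% of all, and the CArG box bound by serum response factor was in none of the 3 and in 1.47% of all. The GC box GGGCGG occurred 3 times for Nr4a1, 4 times for Nr4a2 and once for Nr4a3, beside 32.7% of all windows with at least 1. The letters of a TATA box, TATAAA, were matched for Nr4a2 alone among the 3, and only as the reverse complement TTTATA. They were in 12.4% of all windows. All of these motifs were searched on both strands. The windows were rich in G and C, at 74.4% for Nr4a1, 80% for Nr4a2 and 63.6% for Nr4a3, against a median of 52.4% over all windows. Over the 8129 other coding mRNAs that were measured the median was 61.6%, taking the highest value of a gene with several windows. These matches describe the letters, and binding was not measured.

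Nr4a1 and Nr4a2 mRNA rose in both fractions after thapsigargin, and the rise was larger in polysomes than in the free and monosome pool. On the control array the Nr4a1 spot had a net signal, which is spot intensity less local background, of 439 in P and 1831 in FM. With thapsigargin it had 25907 in P and 23121 in FM. The signal was thus 59.0-fold higher in P and 12.6-fold higher in FM, and the fraction with the lower signal changed from P to FM.

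The Nr4a2 spot gave 89.7 in P and 236.5 in FM on the control array. With thapsigargin it gave 3950 in P and 3866 in FM. The difference was 44.0-fold in P and 16.3-fold in FM, so the gap between both fractions closed in the same direction as for Nr4a1. The software called the spots of both genes well above background in all 4 channel readings, and no spot of the arrays was saturated.

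Nr4a3 stayed at background. Its net signal was 3.68 in P and 5.89 in FM on the control array, and 5.28 in P and 4.70 in FM with thapsigargin. None of these 4 readings was well above background, and each was below the 95th percentile of the 153 negative control spots in the same channel, which was 11.8 and 13.1 for P and FM in control and 9.70 and 14.3 with thapsigargin. No fold is therefore given for Nr4a3, and a change in its mRNA was not detectable with this probe. The windows above do not separate it from the other members by the number of half-sites.

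**Figure D1:**
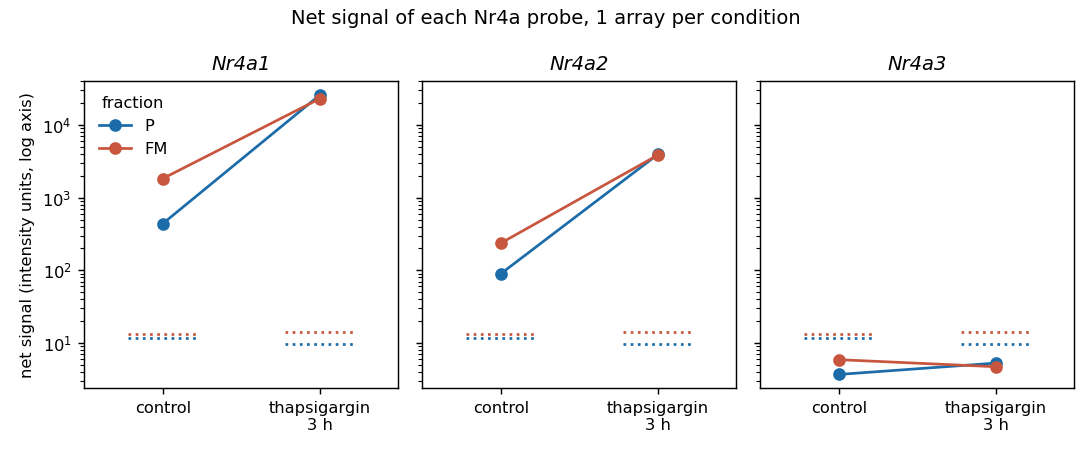
Net signal in intensity units, on a log axis, of the 1 spot of each gene on the control and the thapsigargin array, in P (blue) and FM (red). Dotted marks are the 95th percentile of 153 negative control spots in each channel. Nr4a1 and Nr4a2 lie far above them and rise in both fractions, and all 4 points of Nr4a3 lie below them.

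The level of an mRNA over both fractions was summarised as A, the mean of its log2 signals in P and FM. A of Nr4a1 went from 9.81 to 14.58, a change of 4.77 or 27.3-fold, and A of Nr4a2 from 7.19 to 11.93, a change of 4.75 or 26.8-fold. On the linear scale the summed signal of both fractions rose 21.6-fold for Nr4a1, from 2271 to 49028, and 24.0-fold for Nr4a2, from 326 to 7816. The median change in A over the 10033 coding mRNAs with A above 4.5 on both arrays was 0.37, so Nr4a1 rose 4.40 and Nr4a2 4.37 more than the median. In RNA from a whole culture, a change in the share of cells with the mRNA and a change in mRNA per cell cannot be told apart.

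Since the genes were chosen on this rise, their place among all mRNAs is a description. By change in A they were at ranks 1 and 2 of 10033, followed by Herpud1 at 4.19, a gene of the endoplasmic reticulum stress response named here for its rank. Of these 10033 mRNAs, 11.7% rose by 1 or more in A. By change in log2 P they were also at ranks 1 and 2, at 5.88 and 5.46, with the stress transcription factor Ddit3 next. A rise of 1 or more in log2 P was seen for 16.7% of mRNAs. By change in log2 FM, at 3.66 and 4.03, Nr4a1 was at rank 6 and Nr4a2 at rank 3, and 32.4% of mRNAs rose by 1 or more. Both fractions rose by 1 or more for 4.14% of mRNAs. No other of the 8181 coding mRNAs with all readings well above background rose as far in P and in FM as the lower of both members did. The filter on A leaves out mRNAs that were at background in control: without it, 3 further mRNAs (Atf3, Fcgr1 and Lat, named for this count) had a larger change in A than Nr4a2, but none of them had both control readings well above background, so the size of their rise is not known.

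**Figure D2:**
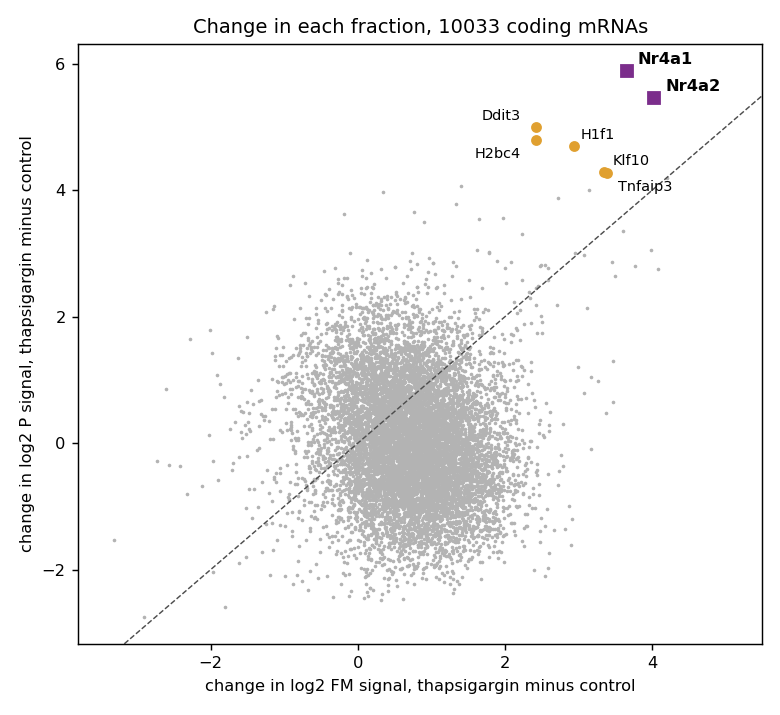
Change in log2 P signal against change in log2 FM signal, thapsigargin minus control, for 10033 coding mRNAs (grey). Nr4a1 and Nr4a2 (squares) lie at the upper right, above the dashed line of equal change; the circles are the 5 mRNAs whose pattern was nearest to theirs.

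Each member rested on a single spot, so its own measurement error could not be estimated and was read from other probes. For 106 non-control probes printed as several spots, all well above background, the median SD between spots was 0.11 for the change in A and 0.09 for the change in log2 P/FM. For 3073 accessions with several probes, the median SD between probes was 0.17 for the change in A and 0.30 for the change in log2 P/FM, and its 95th percentile was 0.57 and 1.26. The changes in A of both members were several times all of these values. Nr4a1 and Nr4a2 differed by 0.02 in their change in A, which is less than the spread between spots of 1 probe. This closeness depended on the processing: with normexp background correction the changes in A were 4.43 and 3.43. These spreads are technical and leave out the variation between cultures.

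The polysome ratio, log2 P/FM, moved toward polysomes for both genes, while its median over all mRNAs fell on the unscaled signals, changed by only -0.04 over the same mRNAs with normexp background correction and rose with scaling to spike-in probes. Nr4a1 had a log2 P/FM of -2.06 in control and 0.16 with thapsigargin, a change of 2.22. Nr4a2 had -1.40 in control and 0.03 with thapsigargin, a change of 1.43. In control the P signal was 0.240 times the FM signal for Nr4a1 and 0.379 times for Nr4a2, and with thapsigargin it was 1.12 and 1.02 times. P therefore made up 19.3% of the summed signal of Nr4a1 in control and 52.8% with thapsigargin, and 27.5% and 50.5% of that of Nr4a2. The dyes were not calibrated against each other, so these are shares of signal and not of molecules.

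Over the 10033 mRNAs the median log2 P/FM was 0.34 in control and -0.29 with thapsigargin, and the median change was -0.71. Nr4a1 rose 2.94 and Nr4a2 2.14 more than that median. In control only 203 mRNAs had a lower ratio than Nr4a1 and 559 a lower ratio than Nr4a2. With thapsigargin they were at ranks 3106 and 3624 from the highest, so both moved from the low end of the distribution to somewhat above its middle. By change they were at ranks 119 and 554, beside 9.9% of mRNAs that rose by 1 or more. Rises by 1 or more in both A and log2 P/FM, as in both members, were seen for 2.61% of mRNAs, and 29 mRNAs rose by 1 or more in P, in FM and in log2 P/FM. The study's term inducible, for mRNAs at or below 0 in control that rise by 1 or more, covered both members and 8.86% of all mRNAs.

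The members differed more in this ratio than in A, except with normexp background correction. The change in log2 P/FM was 0.79 larger for Nr4a1, made up of a difference of 0.42 in log2 P and of -0.37 in log2 FM. That difference is several times the median SD between spots of 1 probe, but under the 95th percentile of the SD between probes of 1 accession. The ratio with thapsigargin differed by 0.13 between them. The ratio also depended on scaling: 10 spike-in probes, which detect RNA added to the samples, changed by -1.51 in log2 P and 0.97 in log2 FM between the arrays. Scaled to them, the change in log2 P/FM was 4.71 for Nr4a1 and 3.91 for Nr4a2, and the median of all coding mRNAs was 1.77 in place of -0.71. Whether the spike-in RNA was added per amount of RNA or per volume is not given in the sources used here, and the study kept the proportions of P and FM RNA for labelling, which this scaling may undo. With normexp background correction the change of Nr4a2 was 0.90, under the limit of 1, and that of Nr4a1 was 1.93. The members then differed about as much in log2 P/FM as in A, where they changed by 3.43 and 4.43. Over the 8 other ways of correcting or scaling that were ranked, Nr4a1 remained at rank 1 by change in A and Nr4a2 at rank 2 or 3. In log2 P/FM they exceeded the median change of all mRNAs by 1.97 to 4.61 for Nr4a1 and by 0.94 to 2.45 for Nr4a2. Centring each channel on its median and scaling to spike-ins shift all mRNAs of a channel alike, so they could not change these ranks or differences. Loess within each array leaves A as it was, so it could not change the ranks by A.

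**Figure D3:**
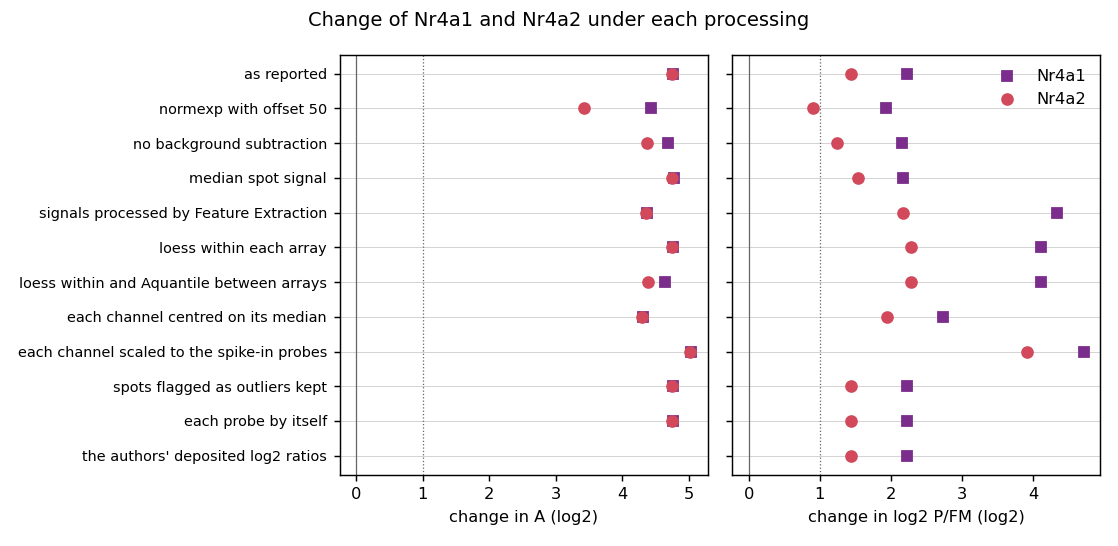
Change in A (left) and in log2 P/FM (right), thapsigargin minus control on the log2 scale, of Nr4a1 (squares) and Nr4a2 (circles) under each processing. The dotted line marks 1; all points lie above it except Nr4a2 with normexp, at 0.90 in log2 P/FM.

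The mRNAs whose pattern was most like that of the members were found by the Euclidean distance over 3 values, the changes in log2 P and log2 FM and the control log2 P/FM. These are 3 values from 2 arrays, and they include the measures by which the members were chosen. Nr4a1 and Nr4a2 were nearer to each other, at 0.868, than to any of the 8181 others. The same 5 genes were nearest to both. Ddit3, which encodes the stress factor CHOP, was nearest to Nr4a1 at 1.55, with a log2 P/FM of -1.74 in control and 0.84 with thapsigargin. H1f1, a linker histone gene, was nearest to Nr4a2 at 1.63, and H2bc4, a core histone gene, lay at 1.87 from Nr4a1 and 1.75 from Nr4a2. Klf10, a zinc finger factor of the immediate-early list, and Tnfaip3, which encodes the NF-kB inhibitor A20, completed the set at 2.41 and 2.46 from Nr4a1. In this set A rose by 3.61 to 3.83, below both members, while log2 P/FM with thapsigargin was 0.65 to 1.29, above both members.

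Among other immediate-early genes, a rise in polysome ratio and a rise in both fractions were each more frequent than over all mRNAs. Of 38 coding mRNAs in this list, 32 had A above 4.5 on both arrays. The median of their polysome ratio rose from -0.54 to 0.69. In this list 18 rose by 1 or more in log2 P/FM and 2 fell, beside 9.9% and 40.8% of all mRNAs, and 16 met the inducible definition, beside 8.86%. By A, 15 rose and 5 fell, beside 11.7% and 0.698%, with a median change of 0.63. The median change in log2 P/FM was 1.48, was above 0 under all 14 alternatives and ranged from 1.06 to 3.96 across them. The median change in A was below 0 in 1 of the 14, at -0.50.

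The members of this list reached a high polysome ratio in different ways. Among those with all readings well above background, Egr2, Ptgs2 and Egr1 had the largest changes in log2 P/FM, at 3.81, 3.64 and 2.89, and their log2 FM changed by only -0.19, 0.34 and 0.77. Egr1 and Egr2 are zinc finger transcription factors and Ptgs2 is the inducible cyclooxygenase. Ier3 rose by 2.56 in log2 P/FM with a change of 0.60 in A. Sgk1, a serum- and glucocorticoid-responsive kinase, rose by 1.79 in log2 P/FM although its A fell by 2.42, since FM lost more signal than P. For 8 of the 32, log2 P/FM rose by 1 or more while log2 FM fell by 1 or more, against 79 of 10033 mRNAs.

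Klf10, the clock gene Per1 and the bZIP repressor Nfil3 had the largest rises in A of the list, at 3.82, 3.57 and 3.29, and like the Nr4a mRNAs they gained signal in both fractions. Their log2 P/FM changed by 0.95, 0.86 and -0.96, each less than in Nr4a2. P and FM both rose by 1 or more in 8 of the 32, beside 4.14% of all mRNAs. Of these 8 the synaptic gene Arc, named for this count, came nearest to a rise of 1 in log2 P/FM, at 0.98. A rise of 1 or more in P, FM and the ratio together, as in both members, was thus counted in 0 of the 32, but this rests on the limit and the scaling: the count was 0 to 4 under the other corrections and scalings, and 3 with each channel centred on its median. Such a rise was found in 0.289% of all mRNAs. Of the mRNAs left out by the filter, Atf3 and Csrnp1 rose by 1 or more in all 3 measures. Atf3 had no control reading well above background, and the 3 probes of Csrnp1 were not all well above background in any reading. The 6 that rose by 1 or more in A and in log2 P/FM, named for this count, were Egr1, Egr2, Junb, Hbegf, Ptgs2 and Klf6, and their log2 FM changed by -0.19 to 0.77, against 3.66 and 4.03 in the members.

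**Figure D4:**
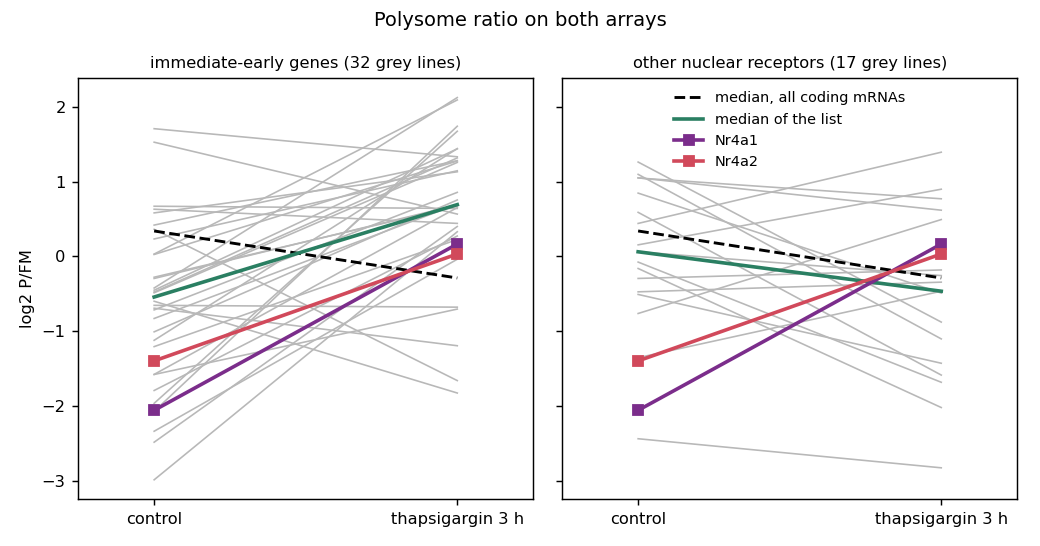
log2 P/FM on the control and the thapsigargin array for 32 immediate-early mRNAs (left) and 17 other nuclear receptor mRNAs (right), 1 grey line per mRNA, with Nr4a1, Nr4a2, the median of the list and the median of 10033 coding mRNAs. The immediate-early median rises from -0.54 to 0.69 as the overall median falls from 0.34 to -0.29, and the nuclear receptor median falls from 0.06 to -0.47.

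No other nuclear receptor mRNA that passed the filter rose as far in A as Nr4a1 and Nr4a2, which follows from the members' ranks of 1 and 2. Of 46 other receptor mRNAs, 17 passed the filter. By A, 3 of them (17.6%) rose by 1 or more and none fell, beside 11.7% and 0.698% of all mRNAs. The filter left out Rara, a retinoic acid receptor named for this count, whose readings were well above background in control and not with thapsigargin. The 3 that rose were Vdr, the vitamin D receptor, at 1.66, and the circadian repressors Nr1d1 at 1.21 and Nr1d2 at 1.03. The orphan receptor Nr2c2 changed by 0.61. Log2 P/FM fell by 1 or more in 6 of the 17 and rose by that in 1, beside 40.8% and 9.9% of all mRNAs. The 1 that rose was the glucocorticoid receptor Nr3c1 at 1.26, whose 4 probes were not all well above background. The lowest changes were -2.20 in the orphan receptor Nr2f6, -2.18 in the estrogen-related receptor Esrra, -2.14 in Rxrb and -1.86 in Rxra. The list had a median change of 0.14 in A and -0.39 in log2 P/FM, near the overall medians of 0.37 and -0.71, and these medians changed sign in 6 and 3 of the 14 alternatives.

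The RXR partners with which Nr4a1 and Nr4a2 can pair fell in polysome ratio on the unscaled signals, though not when scaled to spike-ins. Such a fall was common: on the unscaled signals 40.8% of all mRNAs fell by 1 or more, and the median change was -0.71. Rxra had a log2 P/FM of -0.16 in control and -2.02 with thapsigargin, and its A changed by -0.44. Rxrb had 1.26 in control and -0.88 with thapsigargin, and its A changed by 0.08. No reading of Rxrg was well above background. In both measured partners FM gained signal, by 0.49 and 1.15 on the log2 scale, and P changed by -1.37 and -0.99. Scaled to the spike-in probes, log2 P/FM changed by 0.62 in Rxra and 0.34 in Rxrb, still below the 4.71 and 3.91 of Nr4a1 and Nr4a2. Under the 7 other corrections and scalings the change stayed negative for both partners, at -1.04 or lower.

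The mRNAs of factors known to control Nr4a transcription in response to calcium and cAMP were set beside all mRNAs. A smaller change in A than in Nr4a1 and Nr4a2 was given by the members' ranks of 1 and 2. Of 25 coding accessions listed, 18 passed the filter, with a median change of 0.49 in A and -0.43 in log2 P/FM. Over all mRNAs these medians were 0.37 and -0.71. A rise of 1 or more in A was seen in 1 of the 18, beside 11.7% of all mRNAs. It was the kinase gene Sik1 at 2.17, a CREB target itself, whose FM reading in control was not well above background. Among those with all readings well above background, the histone deacetylase Hdac4 changed by 0.98 in A and the calcium-regulated factor Nfatc1 by 0.97. Another entry of Nfatc1, also well above background in all readings, changed by only 0.19 in A. The log2 P/FM of these Nfatc1 entries changed by 0.25 and -0.55. Creb1 changed by 0.92 and the coactivator Crebbp by 0.84 in A. Log2 P/FM fell by 1 or more in 5 of the 18, a share below the 40.8% of all mRNAs, and rose by that in none, beside 9.9% of all mRNAs. The lowest changes were -1.88 in Hdac7, -1.54 in the CREB coactivator Crtc2, -1.54 in Hdac5 and -1.47 in the transcription factor Mef2d. The median change in log2 P/FM of this list was above 0 in 3 of the 14 alternatives, and that in A was below 0 in 1.

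**Figure D5:**
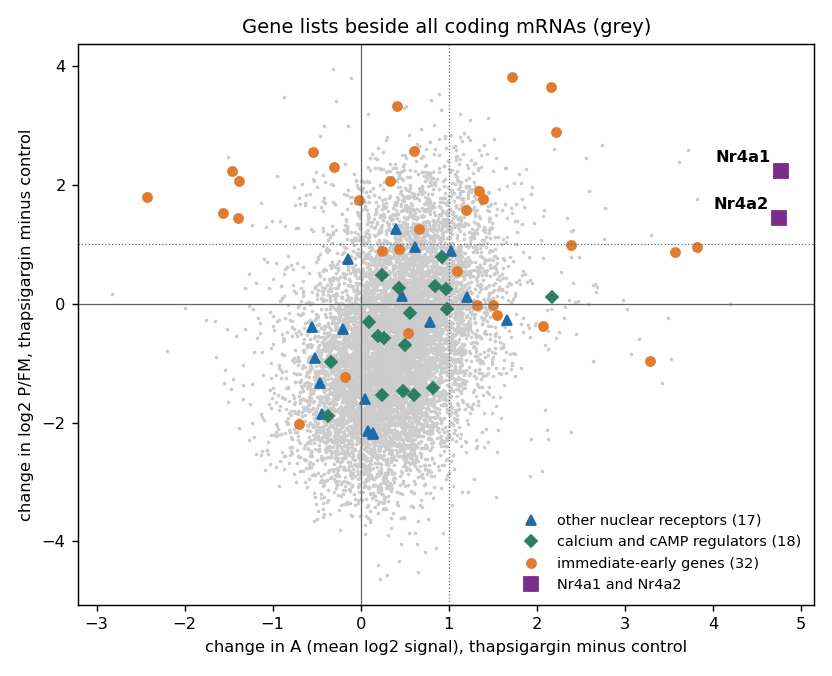
Change in log2 P/FM against change in A, thapsigargin minus control, for 10033 coding mRNAs (grey) and the mRNAs of 3 gene lists that passed the filter (17 other nuclear receptors, 18 calcium and cAMP regulators and 32 immediate-early genes), with Nr4a1 and Nr4a2 as squares. Dotted lines mark a change of 1; both squares lie farthest to the right, above the line in log2 P/FM.

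The half-site count that the 3 Nr4a windows share was set beside the data for other genes, a comparison chosen after the count was seen. Over the 8129 other coding mRNAs with an upstream window, the median change in A was 0.34 for 5524 with no half-site, 0.42 for 1897 with 1, 0.45 for 564 with 2, 0.49 for 114 with 3 and 0.56 for 30 with 4 or more. The share with a rise of 1 or more in A was 10.6%, 12.4%, 13.8%, 21.9% and 23.3% in the same order. No mRNA with 3 or more half-sites other than the members rose by 3 or more in A, but only 13 of all 8129 did. The largest rise among the 30 was 1.90, in the nuclear pore gene Nup133. A gene with several windows was given its highest half-site count and, separately, its highest GC content, which can come from different windows. The median of this GC content rose with the count too, from 60.8% to 64.4%, and its part in these shares was not tested. The share that rose by 1 or more in log2 P/FM was 9.76% with no half-site and 10% with 4 or more.

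The RNA carried the markers of the labelled line. Of 14 fibroblast markers, 12 had at least 1 reading in which all their spots were well above background. Among them were the collagen gene Col1a1, the fibronectin gene Fn1 and the vimentin gene Vim. Fap, with 1 spot, had none, and the 2 probes of the collagen gene Col3a1 were not both well above background in any reading. Of 13 accessions for markers of leukocytes, epithelium, endothelium and neurons, 10 had no reading in which all their spots were well above background. Cd3e and Cd68, of T cells and macrophages, were well above background in all 4 readings, with a change in A of -0.13 and 0.11, and Krt8, a keratin of simple epithelium, in 1 reading.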

How the data were processed

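Translatomes of control NIH3T3 cells and of cells given 10 µM thapsigargin for 3 h were measured on 1 two-colour Agilent array each, and the labels gave the groups. Per the file headers, spot and local background intensity values came from Feature Extraction 10.7.1 (version per the submitters' processing notes) and were not normalized, and flags of 0 or 1, another deposited column type, mark spots well above background, saturated or outlying. The authors also deposited a table of log2 P/FM values, not normalized, with 11483 rows, used as an alternative. Its values for Nr4a1 and Nr4a2 equalled those computed here. The software's processed intensity values, deposited too, were another alternative.

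From each mean spot signal the median of its local background was subtracted, and results below 0.5 were set to 0.5, as the study names it, with limma 3.58.1 in R 4.3.3. No normalization was applied. Of the non-control spots, 295 (0.680%) carried an outlier flag and were not used. Spots of a probe and then probes of an accession were averaged. Coding mRNAs were NM accessions, of which 18423 of 18743 (98.3%) took a current symbol from RefSeq (GRCm38.p6), and those with A above 4.5 on both arrays were counted. A change counted as a rise or a fall from 1 on the log2 scale. The script was tested on simulated data. With 1 array per condition no test was made, and this number sets the precision.

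The members, gene lists and measures were chosen with earlier results of these data known. Besides the members, the named genes were the 5 nearest patterns of each member and, per list, the 4 largest changes in A and the 4 in log2 P/FM among mRNAs with all readings well above background; other names are marked where they appear. Protein sequences were not used here. Alternatives were other background corrections, other scalings, other filters, flagged spots kept, single probes and the deposited ratios.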

Additional observations from a re-analysis of the deposited data

How the results depend on the processing

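No paired analysis was possible because each condition had 1 array. Of 264 values recomputed under 15 settings, none changed sign in a called value, 134 moved by less than 1 SD between spots or probes, or by less than 1.5 times for counts, and 130 moved by more. The cause of these moves was not tested beyond the construction of each setting. The median spot signal left every value of Nr4a1 and Nr4a2 within that spread. Keeping flagged spots and using each probe by itself could not change their values, since each gene rests on 1 unflagged spot of 1 probe. These unchanged values are counted among the 134.

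The change in A of Nr4a1 was 4.43 with normexp, 4.38 with the signals processed by the software, 4.32 with each channel centred on its median and 5.04 scaled to the spike-in probes. That of Nr4a2 was 3.43, 4.36, 4.29 and 5.02 in the same order, 4.37 with no background subtraction and 4.38 with loess and Aquantile. The change in log2 P/FM of Nr4a1 was 4.33 with processed signals, 4.11 with loess, alone or with Aquantile, 2.73 centred and 4.71 on spike-ins. That of Nr4a2 was 2.17, 2.29, 1.94 and 3.91 in that order, and 0.90 with normexp. The change in log2 P of Nr4a1 was 5.4 with normexp, 6.55 processed, 6.82 with loess, 6.70 with Aquantile and 7.40 on spike-ins. That of Nr4a2 was 3.88 with normexp, 4.99 with no subtraction, 5.89 with loess and 6.97 on spike-ins. The change in log2 FM of Nr4a1 was 2.21 processed, 2.72 with loess, 2.59 with Aquantile, 2.95 centred and 2.69 on spike-ins. That of Nr4a2 was 2.97 with normexp, 3.75 with no subtraction, 3.28 processed, 3.6 with loess, 3.24 with Aquantile, 3.32 centred and 3.06 on spike-ins.

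The count of coding mRNAs that rose in A, 1169 as reported, was 127 with normexp, 564 with no subtraction, 597 processed, 344 with Aquantile, 259 centred, 2456 on spike-ins, 1968 by single probe, 615 with A above 7 and 1864 with no filter. The count that rose in log2 P/FM, 993 as reported, was 612 with no subtraction, 2053 processed, 1685 with loess, 1689 with Aquantile, 1835 centred, 7451 on spike-ins, 1844 by single probe, 346 with A above 7 and 1996 with no filter. The filter on A was applied anew with normexp, with no subtraction, with processed signals, with loess, with Aquantile and by single probe. The centred and spike-in counts were made over the 10033 mRNAs that passed it as reported. Over the same 10033 mRNAs, a comparison chosen after seeing the data, the count that rose in A was 127 with normexp, 556 with no subtraction and 451 processed, and the count that rose in log2 P/FM was 843, 601 and 1671. The median change in A with normexp was -1.48 with the filter applied anew and -0.57 over these 10033.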
